A study of Homo sapiens with 12 samples.

Results

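Poly-A-selected RNA from 2 liver cancer lines was sequenced, and 10 genes of lipoprotein assembly were followed through every culture. They are the apolipoproteins APOA1, APOA2, APOB, APOC1, APOC3, APOE, APOH and APOM, the lipid transfer protein MTTP and the endoplasmic reticulum membrane protein TM6SF2. They were chosen by name from the 58735 genes of the deposited tables, and each name matched 1 gene. All 10 passed the filter on low counts among the 19342 genes tested, 5 of them only through Huh7, since HLF held 10 counts or fewer of each in its 6 libraries together.

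Huh7 and HLF are established human hepatocellular carcinoma lines, labelled wild-type. Each was grown as a flat monolayer (2D) or as 3D cultures in Matrigel, a basement membrane gel, under the names Inject-Embed and Mix-Embed. This gave 6 groups of 2 libraries, labelled as biological replicates, and 12 libraries in all. No label says whether replicates came from separate cultures, so p-values measure the spread between these libraries, which may be technical. All cultures were kept in DMEM with fetal bovine serum. Monolayers were harvested at day 2, some 90% confluent, whereas gels were harvested between days 6 and 8. Inject-Embed wells were seeded with 4000 Huh7 or 2000 HLF cells, and Mix-Embed wells with 20000 Huh7 or 10000 HLF cells. Culture form, days in culture and, between the embedding methods, seeding number changed together, so their parts cannot be told apart.

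Liver cells export triglyceride and cholesterol in very low density lipoprotein (VLDL), built around 1 large APOB protein that MTTP loads with lipid as it enters the endoplasmic reticulum. APOA1 and APOA2 are the main proteins of high density lipoprotein (HDL). The small apolipoproteins APOC1, APOC3 and APOE move between particles and set how fast these are lipolysed or cleared. In the liver many of these genes depend on hepatocyte transcription factors such as HNF4A.

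The genes lie at 8 places in GRCh38. APOC3 (chr11:116829706-116833072, plus strand) and APOA1 (chr11:116835751-116837950, minus strand) are neighbours 2678 bases apart. APOE (chr19:44905754-44909393) and APOC1 (chr19:44914247-44919349) are neighbours 4853 bases apart on the plus strand. The others are APOA2 (chr1:161222292-161223631, minus), APOB (chr2:21001429-21044073, minus), MTTP (chr4:99563761-99623999, plus), APOM (chr6:31652416-31658210, plus), APOH (chr17:66212033-66256525, minus) and TM6SF2 (chr19:19264364-19273391, minus). Values are for whole genes. APOM shares 290 bases with BAG6 and MTTP shares 272 bases with TRMT10A, both on the opposite strand. Since no source used here states whether counting used strand, reads from these stretches cannot be assigned with certainty, nor those from APOA1 and its antisense gene APOA1-AS, which share 1834 bases. MTTP also overlaps AC083902.1, and APOB overlaps AC010872.1, on the opposite strand. TM6SF2 overlaps AC138430.1, and APOC1 and APOE overlap AC011481.3, on the same strand. Reads shared with these genes, which held at most 43 counts in any library, cannot be assigned with certainty either.

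Promoter sequence was read from RefSeq (GRCh38.p14), which matched 7 of the 10 genes with 10 promoters. The stretch from 230 to 21 bases before the start site is shown for APOH and MTTP, the genes that were higher in Inject-Embed HLF, and for APOM, which differed most between the embedding methods among the matched genes. They lie at chr17:66229436-66229645 (minus strand), chr4:99574594-99574803 (plus strand, the downstream of the MTTP start sites listed) and chr6:31655664-31655873 (plus strand). Capitals mark letters of the motifs searched.
APOH: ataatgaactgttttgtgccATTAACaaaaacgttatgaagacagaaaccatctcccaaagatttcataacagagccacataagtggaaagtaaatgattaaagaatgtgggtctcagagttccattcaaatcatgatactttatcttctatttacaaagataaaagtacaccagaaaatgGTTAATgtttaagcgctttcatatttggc
MTTP: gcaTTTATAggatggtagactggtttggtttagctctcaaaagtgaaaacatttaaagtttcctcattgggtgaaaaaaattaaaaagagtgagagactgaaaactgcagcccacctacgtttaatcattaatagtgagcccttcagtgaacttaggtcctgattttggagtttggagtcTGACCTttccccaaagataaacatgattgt
APOM: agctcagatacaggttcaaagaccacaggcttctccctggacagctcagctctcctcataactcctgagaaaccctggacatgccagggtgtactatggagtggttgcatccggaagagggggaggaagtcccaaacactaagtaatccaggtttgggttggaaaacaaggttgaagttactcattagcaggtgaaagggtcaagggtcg

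The motifs were searched on both strands of the 250 bases before each of the members' promoters and of all 35116 promoters of that length. APOH held the letters GTTAAT, part of the HNF1 recognition site, from 49 bases before the start and again on the opposite strand from 210 bases before it. Those letters were present in 6.23% of all promoters. MTTP held AGGTCA, part of nuclear receptor sites, on the opposite strand from 50 bases before its start, a motif found in 12.08% of promoters. It also held TATAAA on the opposite strand from 227 bases before the start, as 10.72% of promoters did. The HNF4A core CAAAGTCCA (0.32% of promoters) and the sterol response letters CACCCCAC (2.43%) matched none of the 10 member promoters, and no matches overlapped. These are matches of letters and were not compared with any binding data.

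The 12 libraries held 12325877 to 16041906 gene counts each, and replicates differed beyond counting noise. In Huh7 all 8 hepatocyte markers, ALB, AFP and TTR among them, stood above 10 CPM (counts scaled to a common library total) in every culture. Their summed level was 38190 to 39400 CPM in 2D, 29750 to 31000 in Inject-Embed and 39100 to 39490 in Mix-Embed. AFP carried most of this sum, at 25040, 19480 and 23240 CPM in that order, and TF and SERPINA1 were likewise lowest in Inject-Embed. ALB went the other way, from 357.3 CPM in 2D to 1169 in Inject-Embed and 661.2 in Mix-Embed, and AHSG, TTR and RBP4 were also lowest in 2D. FGB was highest in 2D, at 1167 CPM against 920.5 in Inject-Embed and 900.8 in Mix-Embed. In HLF only FGB of the 8 passed 10 CPM in each culture, and TTR was at 0 throughout, so this liver cancer line had almost none of the defining hepatocyte transcripts. FGB carried the HLF sum, which was 166.8 to 169.4 CPM in 2D, 32.4 to 35.6 in Inject-Embed and 53.9 to 60.4 in Mix-Embed. Of 8 macrophage markers, which matter because macrophages make APOE, only LYZ passed 10 CPM in Huh7, where the list summed to 235.2 to 336.1 CPM and CD163 and C1QA were at 0. The 7 enterocyte markers, which matter because gut cells also make APOB, summed to 232.6 to 233.1 CPM in 2D Huh7, 388.2 to 389.8 in Inject-Embed and 447 to 458.1 in Mix-Embed, with 4, 5 and 5 of the 7 above 10 CPM. VIL1 and CDX2 made up most of this sum. SI read 17.2 CPM in 2D, 22.2 in Inject-Embed and 21.8 in Mix-Embed, and LCT read 5.06, 16.2 and 22.1. APOA4 was low but higher in 3D, at 0.80, 2.32 and 2.84 CPM. MUC13 was highest in 2D, at 27.4 CPM against 19.8 and 19.4. FABP2 was at 0 in 2D and at 0.11 CPM or less in 3D. In HLF the enterocyte markers summed to at most 0.26 CPM in any library, while 6 cholangiocyte markers summed to 66.3 to 67.0 CPM in 2D and 104.7 to 112 in the 3D libraries. SOX9 and SPP1 were higher in 3D HLF, at 15.8 and 22.3 CPM in 2D against 41.9 and 54.2 in Inject-Embed, and CFTR was lower, at 21.2 against 7.17. KRT7 changed little in HLF, at 7.31 CPM in 2D, 7.12 in Inject-Embed and 8.05 in Mix-Embed. The group means of KRT19 and EPCAM there were at most 0.28 and 0.61 CPM. In Huh7 the cholangiocyte markers summed to 432.1 to 479.9 CPM, mostly SOX9. The 7 fibroblast or stellate markers summed to 340.9 to 369.1 CPM in the HLF libraries and 8.16 to 17.7 in those of Huh7. In HLF, COL1A1, COL3A1, PDGFRB and RGS5 passed 10 CPM in each culture, and ACTA2, DCN and LUM did not. The part of these markers in the differences below was not tested.

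The lipoprotein genes were among the abundant transcripts of Huh7. Together the 10 took 1.14 ± 0.04% of all counts in 2D (SD, n = 2), 1.04 ± 0.01% in Inject-Embed and 1.05 ± 0.002% in Mix-Embed. APOB, a very long transcript, gave most of these reads: without it the other 9 took 0.395% in 2D, 0.427% in Inject-Embed and 0.516% in Mix-Embed.

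Levels can be compared between genes only per length, as FPKM (fragments scaled by gene length and library total). APOA1 stood first in every Huh7 culture, at 1018 ± 18.6 FPKM in 2D, 1363 in Inject-Embed and 1604 in Mix-Embed. APOA2 came second with 694.5 FPKM in 2D, 462.8 in Inject-Embed and 711.9 in Mix-Embed. APOB followed them in 2D at 504.9 FPKM, with libraries overlapping those of APOE at 447.7. In 3D it fell behind APOE in the order, to 414.2 FPKM in Inject-Embed and 358.2 in Mix-Embed, against 454.1 and 516.9 for APOE. The APOA2 and APOE libraries overlapped in Inject-Embed, so their places there are not distinct.

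A step below came MTTP at 105, 118 and 112 FPKM in 2D, Inject-Embed and Mix-Embed. APOC1 had 80.3, 72.4 and 100.4 FPKM, and APOH had 55.3, 60.4 and 84.9. APOC3 moved furthest in the order: it lay above APOH in 2D at 66.6 FPKM, below it in Inject-Embed at 42.6 and above MTTP in Mix-Embed at 138.1. APOM stayed next to last at 37.4, 27.9 and 61.5 FPKM. TM6SF2 was last at 2.41, 4.17 and 5.81 FPKM. Apart from the pairs named, neighbours in these orders had no overlapping libraries.

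**Figure D1:**
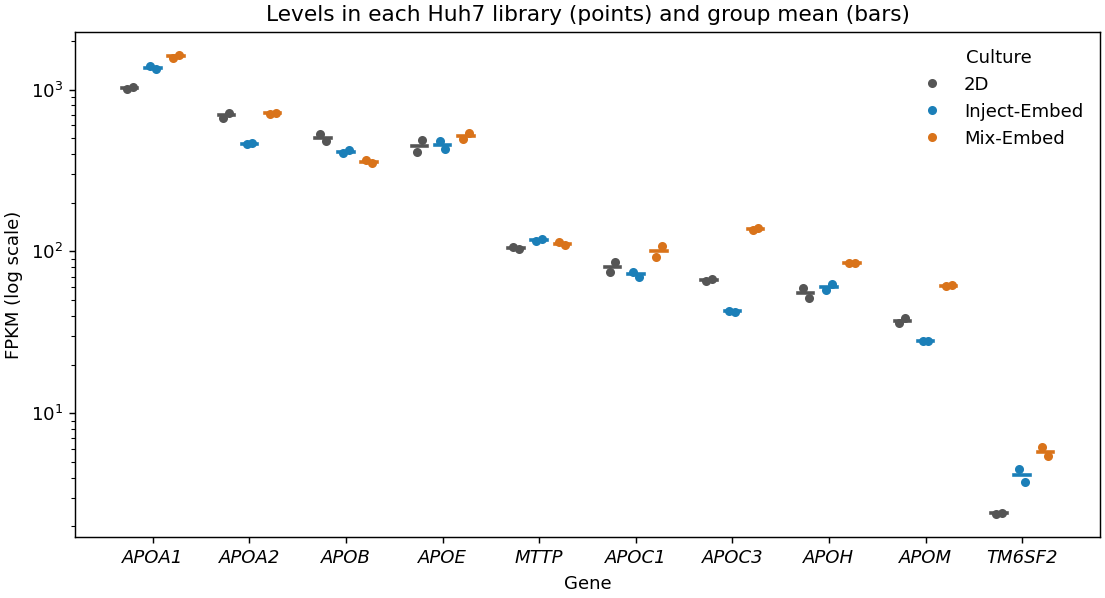
FPKM (log axis) of each of the 10 genes in the 6 Huh7 libraries, with points for libraries of the 3 cultures. APOC3 and APOM are lowest in Inject-Embed and highest in Mix-Embed, while APOB is highest in 2D.

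The first comparison asked how Inject-Embed culture differed from 2D in Huh7. The 2 HDL proteins parted: APOA1 was higher and APOA2 lower in Inject-Embed. APOB, APOC3 and APOM were lower as well, and TM6SF2 and MTTP were higher. With edgeR's quasi-likelihood test and a Benjamini-Hochberg adjusted p under 0.05, 3 of the 10 genes were higher, beside 13.2% of all genes tested, and 4 were lower, beside 16.7%. Their median log2 fold change was -0.10 against -0.01 over all genes, and the median size of change was 0.35 against 0.28.

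Among the structural proteins, APOA1 read 1530 and 1579 CPM in the 2D libraries and 2072 and 1993 in Inject-Embed. Both 3D libraries lay above both 2D libraries, a log2 difference of 0.39 ± 0.04 (SE, adjusted p = 2.35e-09). APOA2 fell from 675 and 732 CPM to 455 and 461, without overlap, by 0.62 ± 0.05 on the log2 scale (adjusted p = 6.33e-14). APOB, the VLDL scaffold, read 8414 and 7638 CPM in 2D and 6287 and 6579 in Inject-Embed. The difference was smaller, at -0.32 ± 0.04 (adjusted p = 5.83e-09).

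Among the exchangeable proteins, APOC3, an inhibitor of lipoprotein lipolysis and clearance, read 61.0 and 62.7 CPM in 2D and 38.7 and 38.5 in Inject-Embed. This was a log2 difference of -0.68 ± 0.09 (adjusted p = 5.29e-08). APOM, the HDL carrier of sphingosine phosphate, was lower too, with 63.9 and 69.1 CPM against 48.6 and 48.4 (-0.46 ± 0.09, adjusted p = 8.74e-05). APOC1 had 98.6 and 114 CPM in 2D and 96.4 and 90.2 in Inject-Embed, without overlap, and missed the threshold (-0.18 ± 0.08, adjusted p = 0.0927). Without the first 2D library it passed, at -0.28. APOE, the ligand for lipoprotein receptors, had interleaved libraries of 960, 1144, 1099 and 986 CPM, and APOH, a phospholipid-binding plasma protein, likewise had 84.2, 73.7, 81.1 and 87.4. Neither passed the test (adjusted p = 0.937 and 0.428).

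In the assembly machinery, TM6SF2, which is needed to load VLDL with lipid, rose from 5.60 and 5.72 CPM to 10.4 and 8.67 (log2 difference 0.76 ± 0.21, adjusted p = 0.00535). Without the first Inject-Embed library it was 0.62 and no longer passed, nor did it with DESeq2 (0.76). MTTP rose slightly, from 616 and 599 CPM to 658 and 679 (0.14 ± 0.05, adjusted p = 0.0222). That call was lost without the second 2D library and without the second Inject-Embed library, at 0.12 each, and with a filter of at least 1 count in total, also at 0.12. P4HB, the protein disulfide isomerase subunit of the MTTP complex, named here after its values were seen, read 1503 CPM in 2D and 1480 in Inject-Embed (adjusted p = 0.739). With limma on log2(FPKM + 1), APOM and MTTP lost their calls, and on log2(FPKM + 0.1) 1 gene was called higher and 2 lower.

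**Figure D2:**
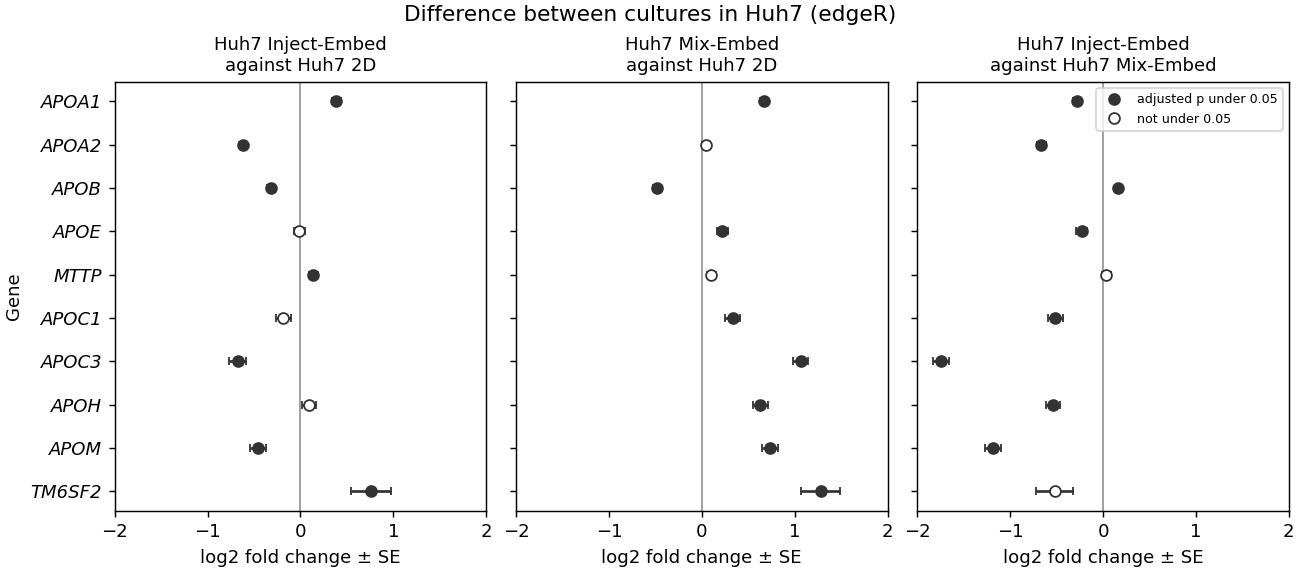
Log2 fold changes (x axis) with SE bars from edgeR for the 10 genes (y axis) in the 3 Huh7 comparisons, filled where the adjusted p was under 0.05. APOC3 stands at -0.68 in Inject-Embed and 1.06 in Mix-Embed against 2D, and APOB lies below 0 in both.

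The second comparison set Mix-Embed against 2D in Huh7. Most of the lipoprotein genes were higher, led by TM6SF2, APOC3, APOM, APOA1 and APOH, while APOB was lower. The test called 7 of the 10 higher, beside 11.2% of all genes, and 1 lower, beside 10.6%. The genes' median log2 fold change was 0.48 against 0 over all genes tested, and their median size of change 0.56 against 0.23. Both 3D comparisons use the same 2D libraries, so their directions are not independent of each other.

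APOC3 read 127 and 131 CPM in Mix-Embed, above 61.0 and 62.7 in 2D, a log2 difference of 1.06 ± 0.08 (adjusted p = 6.41e-14). TM6SF2 reached 14.6 and 12.8 CPM (1.28 ± 0.21, adjusted p = 6.67e-06). The libraries of APOM, at 110.25 and 110.58 CPM, nearly coincided and lay well above 2D (0.73 ± 0.08, adjusted p = 4.92e-09). APOH rose to 122.65 and 121.94 CPM (0.63 ± 0.08, adjusted p = 1.53e-08). For APOA1 the values were 2432 and 2505 CPM, the highest of all Huh7 libraries (0.67 ± 0.04, adjusted p = 8.12e-16).

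APOB stood alone in falling, to 5875 and 5610 CPM (-0.48 ± 0.04, adjusted p = 2.67e-13). APOA2, at 728 and 726 CPM, lay within the 2D range (0.05 ± 0.05, adjusted p = 0.538). MTTP read 665 and 641 CPM, above both 2D libraries, but missed the threshold (0.10 ± 0.05, adjusted p = 0.118). The 2 smallest calls rested on single libraries. APOC1 was higher at 124 and 144 CPM (0.33 ± 0.08, adjusted p = 0.00176), and lost its call without the first 2D library or without the second Mix-Embed library, at 0.23 and 0.22. APOE was higher at 1173 and 1275 CPM (0.22 ± 0.06, adjusted p = 0.00451), and lost its call without the same libraries, at 0.10 and 0.15, and with DESeq2, at 0.20. With limma on log2(FPKM + 1) neither was called, and on log2(FPKM + 0.1) 1 gene of the 10 was called higher.

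The third comparison set the embedding methods against each other in Huh7. Inject-Embed had less of 7 of the 10 transcripts, beside 13.4% of all genes called lower, and more of 1, beside 9.55%. The median log2 difference was -0.52 against -0.03 over all genes. Scaling by library totals alone turned the balance of all called genes from 1848 higher and 2587 lower to 2393 higher and 2132 lower, and kept all 8 member calls in number and direction.

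APOC3 differed most, at -1.74 ± 0.09 (adjusted p = 2.68e-20), a group mean of 38.6 CPM in Inject-Embed against 129.2 in Mix-Embed. APOM followed at -1.19 ± 0.09 (adjusted p = 1.72e-14). These 2 genes lay below 2D in one 3D culture and above it in the other. APOA2 was lower by 0.67 ± 0.05 on the log2 scale, APOH by 0.54 ± 0.08, APOC1 by 0.52 ± 0.08 and APOA1 by 0.28 ± 0.04, with adjusted p from 1.38e-14 to 4.26e-06. APOE differed by -0.23 ± 0.06 (adjusted p = 0.00249), a call that was lost without the second library of either 3D group (-0.15 and -0.16) and with DESeq2 (-0.22). APOB was the 1 gene higher in Inject-Embed (0.16 ± 0.04, adjusted p = 0.000907). TM6SF2 missed the threshold at -0.52 ± 0.20 (adjusted p = 0.0514), as did MTTP at 0.03 ± 0.05 (adjusted p = 0.692). With limma APOA1, APOC1 and APOE lost their calls on either FPKM scale, and on log2(FPKM + 0.1) 3 genes were called lower and 0 higher.

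Ratios between genes of 1 library do not depend on how libraries are scaled, and showed the same divergence. They were computed from the same libraries as the tests and are given without one. APOC3 amounted to 6.54 ± 0.02% of the APOA1 FPKM in 2D, 3.13 ± 0.07% in Inject-Embed and 8.61 ± 0.01% in Mix-Embed (SD, n = 2). For APOA2 over APOA1 the ratio was 68.2 ± 2.38% in 2D and lower in both 3D cultures, at 34.0 ± 1.27% and 44.4 ± 1.02%. The shift from APOB to APOA1 was largest in Mix-Embed, where APOB was 22.4 ± 1.2% of APOA1, against 49.6 ± 4.5% in 2D and 30.4 ± 1.81% in Inject-Embed. APOM over APOA1 was 3.67 ± 0.12% in 2D, 2.05 ± 0.05% in Inject-Embed and 3.84 ± 0.07% in Mix-Embed.

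The ratio of the neighbours APOC1 and APOE varied less over the cultures than that of the neighbours APOC3 and APOA1: APOC1 was 18.0 ± 0.43% of APOE in 2D, 16.0 ± 0.47% in Inject-Embed and 19.4 ± 0.93% in Mix-Embed. MTTP rose relative to its partner APOB, from 20.8 ± 1.03% in 2D to 28.6 ± 0.26% in Inject-Embed and 31.2 ± 0.22% in Mix-Embed.

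**Figure D3:**
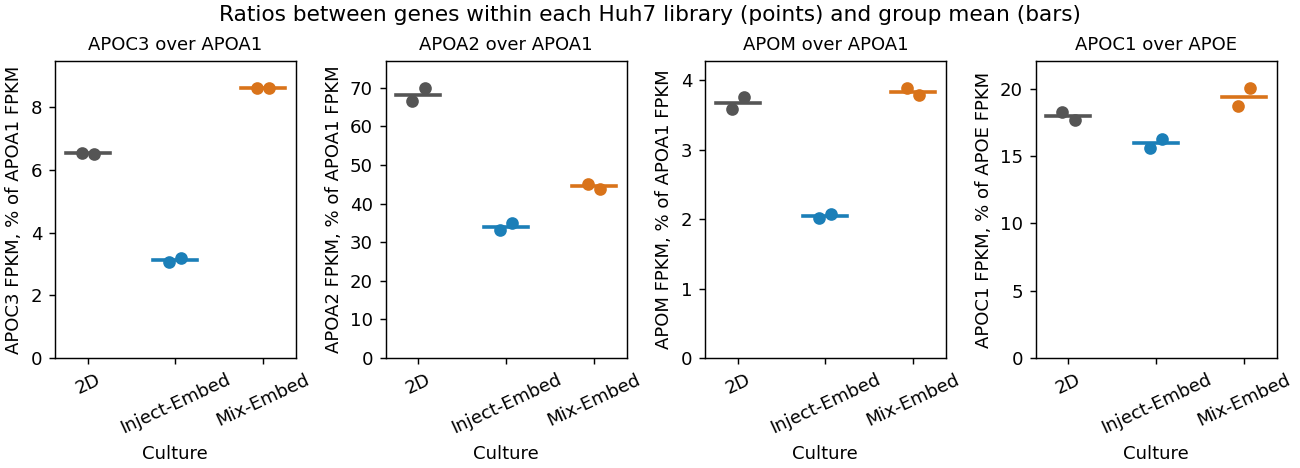
FPKM of 1 gene as a percentage of another's within each Huh7 library (points), with the group mean as a bar, by culture. APOC3 over APOA1 runs from 3.13% in Inject-Embed to 8.61% in Mix-Embed, while APOC1 over APOE stays between 15.6% and 20.1%.

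Across the 6 Huh7 libraries, which share culture groups and so are not independent, APOC3 and APOM had nearly the same pattern (Pearson r = 0.999) and APOA1 and APOB opposite ones (r = -0.983). Among the 9397 genes that could be compared, those most like APOA1 were ZNF212 (r = 0.9975), HIBADH (0.9974) and SP5 (0.9971). Those most like APOA2 were AGXT (0.9984), INSR (0.9974) and ULK1 (0.9971). For APOE they were PRRC2B (0.9901), TMEM120A (0.989) and BLOC1S4 (0.9844).

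The rest of the lipoprotein pathway was read from lists of related genes. Their counts stand beside 13.2% of all genes called higher and 16.7% lower in Inject-Embed, and 11.2% and 10.6% in Mix-Embed, shares that several of them do not exceed or pass only narrowly. Of 12 other apolipoproteins tested in Huh7, 1 was higher and 4 lower in Inject-Embed, and 4 were higher and 3 lower in Mix-Embed. APOA5, an activator of triglyceride lipolysis, lies in the same chromosomal cluster as APOC3 and APOA1. It read 3.88 CPM in 2D and 10.3 in Mix-Embed, a log2 difference of 1.40 ± 0.26 (adjusted p = 6.6e-05). In Inject-Embed it read 2.97 CPM and did not pass (-0.38 ± 0.30, adjusted p = 0.387). Clusterin (CLU), a chaperone-like apolipoprotein, was lower in both 3D cultures, at 489.3 and 448.1 CPM against 715.5 in 2D. The acute-phase gene SAA2 was also lower in both, from 4.05 CPM to 0.17 in Inject-Embed and 0.32 in Mix-Embed. APOA4, of that cluster too, was higher in both, at 2.32 CPM in Inject-Embed (adjusted p = 0.0205) and 2.84 in Mix-Embed (adjusted p = 0.0064) against 0.80 in 2D.

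Of 18 genes of VLDL assembly and export, 5 were higher and 8 lower in Inject-Embed, and 5 were higher and 5 lower in Mix-Embed. The carboxylesterase CES1 showed the largest change, from 2.15 CPM in 2D to 15.8 in Inject-Embed and 24.2 in Mix-Embed (log2 differences 2.87 ± 0.22 and 3.49 ± 0.21). DGAT1, which makes triglyceride, was higher in both, at 417.5 and 381.1 CPM against 277.6. The lipid droplet coat gene PLIN2 was lower in Inject-Embed, at 133.4 CPM against 221.4 in 2D, and higher in Mix-Embed, at 251.9 (adjusted p = 0.00876). SORT1, a sorting receptor for APOB, was lower in both 3D cultures, at 126.9 and 115.7 against 159.5 CPM, as was the cargo export factor MIA3 at 105.6 and 97.3 against 122.7.

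Of 13 receptor and uptake genes, 2 were higher and 7 lower in Inject-Embed, and 3 were higher and 3 lower in Mix-Embed. LRP1, a remnant receptor that binds APOE, was higher in both 3D cultures, at 1082 and 1436 against 955.3 CPM, and LRP8, another APOE receptor, was lower in both.

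Of 13 lipase and HDL remodelling genes, 1 was higher and 5 lower in Inject-Embed, and 2 were higher and 1 lower in Mix-Embed. Endothelial lipase (LIPG) fell from 26.8 CPM in 2D to 13.4 in Inject-Embed, and LCAT, which esterifies HDL cholesterol, from 18.8 to 12.5. In Mix-Embed they read 29.1 and 21.1 CPM and did not pass (adjusted p = 0.574 and 0.416). The HDL-bound enzyme PON3 was higher in both, at 14.4 and 14.8 against 9.55 CPM. Hepatic lipase (LIPC) was lower in both, at 80.2 CPM in Inject-Embed and 75.1 in Mix-Embed against 97.6.

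Of 21 regulators of apolipoprotein transcription, 4 were higher and 9 lower in Inject-Embed, and 8 were higher and 2 lower in Mix-Embed. HNF4A, an activator of many apolipoprotein genes, rose from 366.2 CPM in 2D to 498.1 in Inject-Embed (0.44 ± 0.05, adjusted p = 9.14e-10) and 550.2 in Mix-Embed (0.59 ± 0.05, adjusted p = 7.58e-13). CEBPA rose as well, to 235.9 and 284.3 from 188.5 CPM. NR2F1 and XBP1 fell in both, NR2F1 from 75.7 CPM to 48.5 and 56.2, and XBP1 from 731.4 to 503.2 and 579.2. Between the embedding methods 12 of the 21 were lower in Inject-Embed and none higher by edgeR, beside 13.4% and 9.55% of all genes. The balance over all genes in this comparison depended on the scaling, as given above. Among the 12 were PPARA at 96.6 against 137.3 CPM, FOXA2 at 74.2 against 103.6 and SREBF2 at 304.8 against 399.1.

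HLF carried almost no transcripts of the 10 genes. They took 0.00045% of counts in 2D, 0.00076% in Inject-Embed and 0.00069% in Mix-Embed. APOB, APOA2 and TM6SF2 had 0 counts in all 6 HLF libraries, where 3 counts, the limit that a count of 0 allows, correspond to 0.178 to 0.205 CPM. APOA1 had 7 counts in the 6 libraries together and APOC3 had 2.

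The comparison of the lines in 2D was therefore one of presence. All 10 genes were called higher in Huh7, and 38.1% of all genes tested were. Nothing is read from that count: the 10 passed the low-count filter through Huh7, and APOA1, APOA2, APOB, APOC3 and TM6SF2 through Huh7 alone, so that these had to be higher. APOB was at least 85700-fold higher, APOA2 at least 7510-fold and TM6SF2 at least 60.4-fold, each against 3 counts over the HLF 2D group. APOA1 was 16600-fold higher (95% counting interval 5680 to 80400), MTTP 6490-fold (2220 to 31500) and APOC3 1980-fold (355 to 78200). The genes with more HLF counts were APOE, with a log2 difference of 10.50 ± 0.13, APOH with 8.65 ± 0.20, APOC1 with 6.02 ± 0.15 and APOM with 5.40 ± 0.15, all with adjusted p of 8.78e-32 or smaller. The median over all genes was -0.02 in this comparison and -0.18 when libraries were scaled by their totals only, a shift that is small beside these differences. In the HLF 2D libraries the overlapping gene BAG6 held 5895 and 5971 counts, beside 17 and 33 of APOM. TRMT10A held 86 and 114, beside 1 and 2 of MTTP. Reads from the shared stretches cannot be assigned with certainty, so the HLF levels of APOM and MTTP carry this limit.

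Within HLF, 5 genes had more than 10 counts over the groups compared: APOC1, APOE, APOH, APOM and MTTP. In Inject-Embed against 2D, 2 of the 5 were higher, beside 9.09% of all genes, and none lower, beside 8.86%. These were MTTP and APOH, which met the count rule only through Inject-Embed, with 3 and 6 counts in 2D. The shares of all genes carry no such rule, so nothing is read from this count. The ratios and tests of MTTP and APOH are given as a description. MTTP had 1 and 2 counts in 2D and 11 and 11 in Inject-Embed, a ratio of 7.49 (95% counting interval 2.25 to 39.1). APOH had 2 and 4 counts in 2D and 16 and 18 in Inject-Embed, a ratio of 5.78 (2.4 to 16.9). Neither overlapped between groups, and edgeR gave log2 differences of 2.80 ± 0.62 and 2.48 ± 0.53 (adjusted p = 0.000683 and 0.000508). For MTTP the call was lost with limma on log2(FPKM + 1), at 0.16, a scale on which such low values scarcely move.

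APOC1, APOE and APOM did not pass in HLF Inject-Embed (adjusted p = 0.297, 0.342 and 0.699). Their ratios to 2D were 1.41 (0.976 to 2.06), 1.6 (0.921 to 2.82) and 1.16 (0.782 to 1.74). The 2D libraries differed for each of them, with 16 and 36 counts of APOC1, 19 and 4 of APOE and 17 and 33 of APOM. Leaving out the first 2D library gave APOE a passing difference of 2.15, and leaving out the second turned it to -0.03 and gave APOC1 a passing 1.21. Scaling by library totals alone changed the balance of all called genes from 1758 higher and 1713 lower to 2163 and 1252.

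In HLF Mix-Embed against 2D, 2 of the 5 were again higher, beside 14.4% of all genes, and none lower, beside 14.6%. Nothing is read from this count or from the MTTP test either, since MTTP met the count rule only through the 3D group. MTTP had 15 and 7 counts, a ratio of 7.46 (2.24 to 38.9) to 2D (log2 difference 2.79 ± 0.62, adjusted p = 0.000385). Without the first Mix-Embed library it was 2.07 and did not pass. APOE, with 21 and 28 counts, was above both 2D libraries, a ratio of 2.17 (1.3 to 3.73), with a log2 difference of 1.11 ± 0.41 (adjusted p = 0.0363). That call was lost without the second 2D library (0.41), without either Mix-Embed library (1.22 and 1.00) and when HLF was fitted alone. APOH had 10 and 5 counts, a ratio of 2.54 (0.932 to 8), and did not pass (adjusted p = 0.133). Neither did APOC1 and APOM, with adjusted p = 0.742 and 0.995. By library totals alone, all called genes went from 2789 higher and 2816 lower to 3434 and 2072.

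Between the HLF embedding methods none of the 5 passed with edgeR, beside 8.27% of all genes, and 1 had an unadjusted p under 0.05. This was APOH, with 34 counts in Inject-Embed and 15 in Mix-Embed (ratio 2.27, 1.21 to 4.49, adjusted p = 0.0904). DESeq2 called none of the 5 either.

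**Figure D4:**
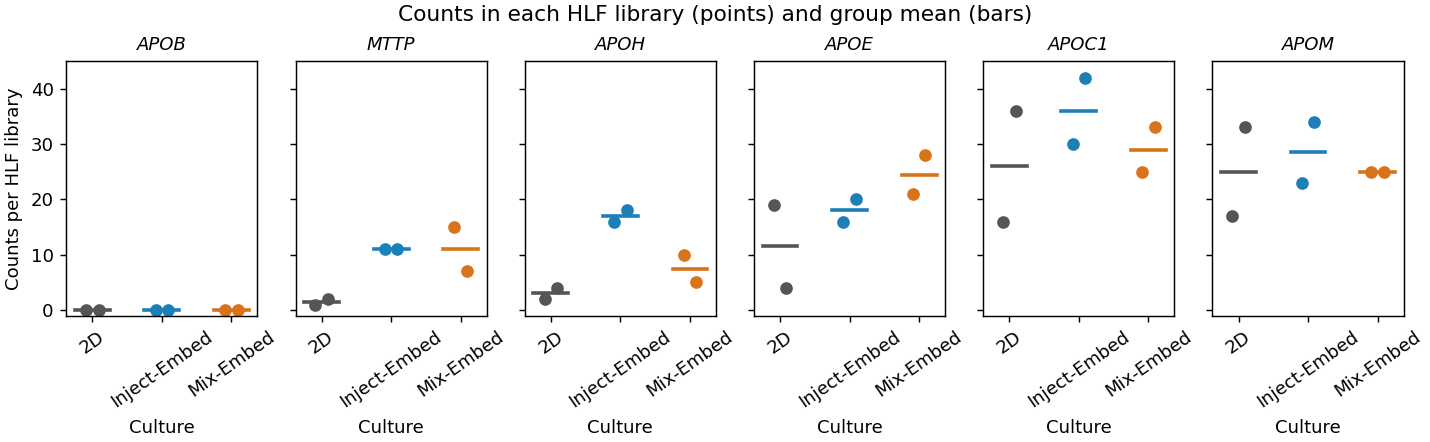
Counts (linear y axis) of APOB and of the 5 genes with more than 10 counts in HLF, by culture, with points for libraries and bars for group means. APOB is at 0 in every HLF library. MTTP rises from 1 and 2 counts in 2D to between 7 and 15 in the 3D libraries, while APOC1 and APOM overlap in all cultures.

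The response to 3D culture was then compared between the lines by an interaction term, over the same 5 genes. Of these, MTTP and APOH met the count rule in HLF only through the 3D groups, which ties their entry to a rise in HLF. The counts of genes below are therefore not read against the shares of all genes, and the tests of MTTP and APOH are given as a description. For Inject-Embed the response was lower in Huh7 for 2 of the 5, beside 13.1% of all genes. MTTP changed by 0.14 in Huh7 and 2.80 in HLF, a difference of -2.66 ± 0.62 (adjusted p = 0.000986), and APOH by 0.09 and 2.48, a difference of -2.39 ± 0.54 (adjusted p = 0.000674). For Mix-Embed the response was lower in Huh7 for 1 of the 5, MTTP, at -2.69 ± 0.62 (adjusted p = 0.00109), beside 10.2% of all genes. Without the first HLF Mix-Embed library it was -1.97 and not called. These are differences of ratios: the 2D level of MTTP was 6490-fold higher in Huh7, and on the log2(FPKM + 1) scale the Inject-Embed difference was 0.01 and the Mix-Embed difference -0.08. By library totals alone, all genes called in the Mix-Embed interaction went from 1968 higher and 1976 lower to 1457 and 2466.

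The same lists were read in HLF, where 9.09% of all genes were higher and 8.86% lower in Inject-Embed, and 14.4% and 14.6% in Mix-Embed. Several list counts lay near or below these shares. Of 12 other apolipoproteins, 3 were higher and none lower in each 3D culture: APOL1, an apolipoprotein of a subset of HDL that is nearly absent from Huh7, read 63.95 CPM in 2D, 113.5 in Inject-Embed and 156.6 in Mix-Embed, and APOL3 and APOL6 were higher as well. Of 18 assembly genes, 2 were higher and 3 lower in Inject-Embed, and 4 were higher and 4 lower in Mix-Embed. PLIN2 rose from 43.4 to 65.8 and 70.6 CPM, and SORT1 fell from 257.4 to 203.9 and 222.7. Of 13 receptor genes, none was higher and 2 lower in Inject-Embed, and 3 were higher and 1 lower in Mix-Embed. SDC1, a proteoglycan that takes up remnants, fell from 31.0 CPM to 18.1 and 21.7.

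Of 13 lipase and HDL genes in HLF, 2 were higher and 2 lower in Inject-Embed, and 4 were higher and 2 lower in Mix-Embed. LIPG, among those higher in both, was near the floor, at 0.03 CPM in 2D, 0.42 in Inject-Embed and 0.41 in Mix-Embed. ABCA1, which loads APOA1 with lipid, fell from 54.7 CPM in 2D to 18.8 in Inject-Embed (-1.54 ± 0.08, adjusted p = 1.22e-19) and 27.5 in Mix-Embed (-0.99 ± 0.08, adjusted p = 1.64e-14). Of the 21 regulators, 3 were higher and 2 lower in Inject-Embed, and 9 were higher and 2 lower in Mix-Embed. Among the 9, NR1H4 and FOXA2 were near the floor, at 0.06 and 0.19 CPM in 2D against 0.53 and 0.61 in Mix-Embed. NR2F1 rose from 78.0 CPM to 105 and 148.6, opposite in direction to Huh7, with an interaction of -1.07 ± 0.11 for Inject-Embed (adjusted p = 5.34e-11). HNF4A was at 0.06 CPM in 2D HLF against 366.2 in 2D Huh7. As these are bulk libraries, fewer cells making a transcript and less of it per cell cannot be told apart in any comparison above.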

How the data were processed

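RNA-seq of 12 libraries was analysed from gene counts and FPKM values as deposited. Per the submitters' processing notes, the authors used FastQC, Trimmomatic, STAR (2.7.9a) and featureCounts on GRCh38; settings, strandedness and gene models are not named in those notes. Deposited FPKM values equal count over gene length and library total to within 1e-06 for all 167453 values with 20 or more counts.

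The deposited counts were tested with edgeR 4.0.16 (quasi-likelihood, TMM scaling, filterByExpr with a minimum count of 10, group means over all 12 libraries; R 4.3.3), with Benjamini-Hochberg adjustment over 19342 genes and a threshold of 0.05. CPM values use the TMM-scaled totals. Standard errors were derived from the fold change and its F statistic. Counting intervals (exact, 95%) and floors (3 counts) cover counting error only. In comparisons within HLF and of responses, the followed genes needed more than 10 counts. This rule was not applied to the lists of related genes. The code was tested on simulated counts. Alternatives were DESeq2 1.42.0, limma 3.58.1 on log2(FPKM + 1) or log2(FPKM + 0.1), other scalings and filters, a replicate block, fewer groups and each library left out.

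Replicate numbers were shared between groups, but same-numbered libraries did not deviate together, so no block was used. The 10 genes, the lists and the tests were chosen with earlier results of these data known. Per list and comparison, named genes were the called genes ranking in the top 3 by adjusted p, plus at most 2 changed the opposite way; the text gives part of them. Some genes of the receptor list are not reported here by name.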

Additional observations from a re-analysis of the deposited data

Results flagged for a closer look

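In 3 instances the response of a gene to 3D culture differed between the lines by the interaction test. The log2 response of MTTP to Inject-Embed was lower in Huh7 than in HLF (a difference of -2.66), and its response to Mix-Embed likewise (-2.69). The response of APOH to Inject-Embed differed by -2.39. Each rests on 34 or fewer counts in the HLF groups. Both genes met the count rule in HLF only through the 3D groups, which ties their entry to a rise in HLF. These tests are therefore given as a description, and nothing is read from them.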

How the results depend on the processing

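Of 65 differences of single members between groups, all 65 kept direction and call with RLE size factors and with the replicate block, 63 with library totals alone, 64 with a filter of at least 1 count and 62 with DESeq2. With the replicate block the count of members called higher in Huh7 Mix-Embed against 2D was again 7. The numbers were not taken as pairing, since deviations of same-numbered libraries correlated between -0.148 and 0.116 over 15 pairs of groups. With limma on log2(FPKM + 1), the members called were 1 higher in HLF Inject-Embed, 0 higher in HLF Mix-Embed, 1 lower in the Inject-Embed response (0 with all genes above 0 kept) and 0 lower in the Mix-Embed response. On log2(FPKM + 0.1) they were 1 higher and 2 lower in Huh7 Inject-Embed, 1 higher in Huh7 Mix-Embed, 0 higher and 3 lower in Inject-Embed against Mix-Embed, 1 higher in HLF Mix-Embed, 1 lower in the Inject-Embed response and 0 lower in the Mix-Embed response. HLF Mix-Embed against 2D had 0 higher when the compared groups were fitted alone and 1 with the line alone. The cause of these changes was not tested.

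With 1 library left out, the lone library is assumed to vary like the other groups. Members called then ranged from 0 to 2 higher in HLF Mix-Embed, 2 to 4 lower in the Inject-Embed response, and 0 to 2 lower and 0 to 1 higher in the Mix-Embed response. They ranged from 2 to 3 higher and 4 to 5 lower in Huh7 Inject-Embed, 5 to 7 higher in Huh7 Mix-Embed and 6 to 7 lower in Inject-Embed against Mix-Embed.

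No difference that was called changed sign except the MTTP response to Inject-Embed, at 0.0078 on log2(FPKM + 1) with either filter. The other reversals were of uncalled differences. APOE in Huh7 Inject-Embed was 0.0209 with library totals, 0.0234 and 0.0235 with limma, and 0.0203 and 0.0215 with fewer groups. MTTP in HLF Inject-Embed against Mix-Embed was -0.013 with library totals, -0.0048 with limma, and -0.0093 and -0.0114 with fewer groups. The APOH response to Mix-Embed was 0.3352 on log2(FPKM + 1). The other reversals came from leaving out 1 library. In Huh7, APOE in Inject-Embed then ranged from -0.1319 to 0.1207 and APOA2 in Mix-Embed from -0.0107 to 0.1059. In HLF Inject-Embed, APOM ranged from -0.1936 to 0.7868 and APOE from -0.0313 to 2.1498. In HLF Mix-Embed, APOC1 ranged from -0.3001 to 0.9006 and APOM from -0.3874 to 0.6015. Between the HLF embedding methods, MTTP ranged from -0.544 to 0.7333 and APOM from -0.0974 to 0.4152. Between the lines, the APOE response to Inject-Embed ranged from -2.1602 to 0.0509 and the APOC1 response to Mix-Embed from -0.5745 to 0.6305.

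Over all genes, calls moved by over 1.5 times between edgeR and an alternative in 3 comparisons. HLF Inject-Embed against Mix-Embed went from 689 higher and 911 lower to 464 and 547 with DESeq2 and to 217 and 352 on log2(FPKM + 0.1). HLF Inject-Embed against 2D went from 1758 and 1713 to 1224 and 796, and Huh7 Mix-Embed against 2D from 2157 and 2046 to 1216 and 1382, both on that scale. The HLF libraries were as deep as those of Huh7, and the members had at most 42 counts in any of them, so HLF differences carry the wide counting intervals given.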
